A study of Mus musculus with 4 samples.

Results

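The genes described here are the acyl-CoA synthetases and fatty acid carriers of mouse oligodendroglial cells. They were taken from the 4 deposited count tables by gene symbol. The 10 genes comprise the long-chain synthetases Acsl1, Acsl3, Acsl4, Acsl5 and Acsl6, the very long-chain synthetase Acsbg1, the acetyl-CoA synthetase Acss2, and the carriers Fabp3, Fabp5 and Dbi. All 10 of them are among the 53465 genes listed, and all 10 passed the filter on low counts, which 15766 genes passed. The RNA-Seq compared primary oligodendroglial cultures (1° OGCs) of 2 genotypes, with 2 libraries each. Both genotypes carried Zfp276 flox/flox alleles, whose exons for the zinc finger protein Zfp276 lie between sites cut by Cre recombinase. The Zfp276cko cultures also carried the Sox10::Cre transgene, which is active from the oligodendrocyte precursor (OPC) stage onwards. A tdTomato reporter at the Rosa26 locus, switched on by Cre and not listed in the labels, had also been bred into the mice for culture so that Zfp276cko pups could be recognised. Each library came from its own preparation of forebrain cells pooled from several P2-P4 pups, after shake-off, depletion of microglia and 3 days of differentiation (3ddiff). According to the methods of the study, only a stretch of the Zfp276 exons is removed by Cre. Reads from the exons that remain, cells that Cre did not recombine and cells outside the lineage cannot be told apart in the Zfp276 counts.

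Free fatty acids enter metabolism only after an acyl-CoA synthetase has joined them to coenzyme A. The members of the family differ in the chain length they prefer and in where they sit in the cell, and the acyl-CoAs they make are passed on to membrane lipids, lipid droplets, elongation or oxidation. Because free fatty acids and acyl-CoAs are poorly soluble, fatty acid binding proteins carry the former and the acyl-CoA binding protein Dbi carries the latter. Oligodendrocytes (OLs) have a high demand for acyl chains, since myelin is a lipid-rich membrane.

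The libraries held between 21068322 and 26599809 counted reads. The ctrl preparations differed much more from each other (biological coefficient of variation 0.354) than the Zfp276cko preparations did (0.0480). In the quasi-likelihood test of edgeR, with p-values adjusted by Benjamini and Hochberg over all genes tested, no gene reached an adjusted p of 0.05, and the lowest value was 0.0725. Zfp276 itself had normalized counts of 1648 and 2230 in ctrl and of 490 and 503 in Zfp276cko, 25.6% of the ctrl mean. Its log2 fold change was −1.97 (SE 0.18, adjusted p = 0.0962). A normalized count is a count scaled to the same effective library size in every library. All 11 OL and all 8 OPC markers passed the filter, but so did all 10 astrocyte genes, all 11 microglial genes listed and 9 of 10 neuronal genes. The summed normalized counts of the OL markers ranged from 311320 to 423021 in ctrl and from 212554 to 217237 in Zfp276cko. In both Zfp276cko libraries 10 of 11 lay below both ctrl libraries, compared to 23.7% of all genes tested. The OPC markers summed to 225144 and 158780 in ctrl versus 122979 and 121647 in Zfp276cko, with 5 of 8 below both ctrl libraries. Gpr17 had the highest counts of them, 113405 and 69766 in ctrl versus 43296 and 41092 in Zfp276cko. Pdgfra, Lhfpl3 and Sox6 overlapped between the genotypes. The summed normalized counts of the 11 microglial genes listed ranged from 26909 to 48424 in ctrl and from 40379 to 41646 in Zfp276cko, so transcripts of these cells were still detected. Astrocyte genes summed to between 42885 and 48936 over the 4 libraries and neuronal genes to between 15674 and 25073. In RNA from whole cultures, fewer cells of a type and less RNA per cell cannot be told apart.

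Among the 10 genes, Acsl3 and Acsl1 were lower and Fabp3, Acsl6, Acsl5 and Dbi were higher in each Zfp276cko library than in either ctrl library. For Acsl4, Acsbg1, Acss2 and Fabp5 the groups overlapped. Of all genes tested, 23.7% lay below both ctrl libraries and 26.8% above, so 2 of 10 genes below was close to the share of all genes. None of the 10 passed the adjusted p in edgeR, where 0% of all genes were called lower and 0% higher. At an unadjusted p of at most 0.05, Acsl1 and Acsl3 were lower (7.3% of all genes tested) and Acsl5, Acsl6 and Fabp3 were higher (8.33% of all genes). In DESeq2, with the thresholds of the study, Acsl1 and Acsl3 were called lower (2.27% of the genes it tested) and Fabp3 was called higher (3.02%). The log2 fold changes of the 10 genes ranged from −1.75 to 1.47 with a median of 0.15, compared to −0.0013 for all genes tested.

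**Figure D1:**
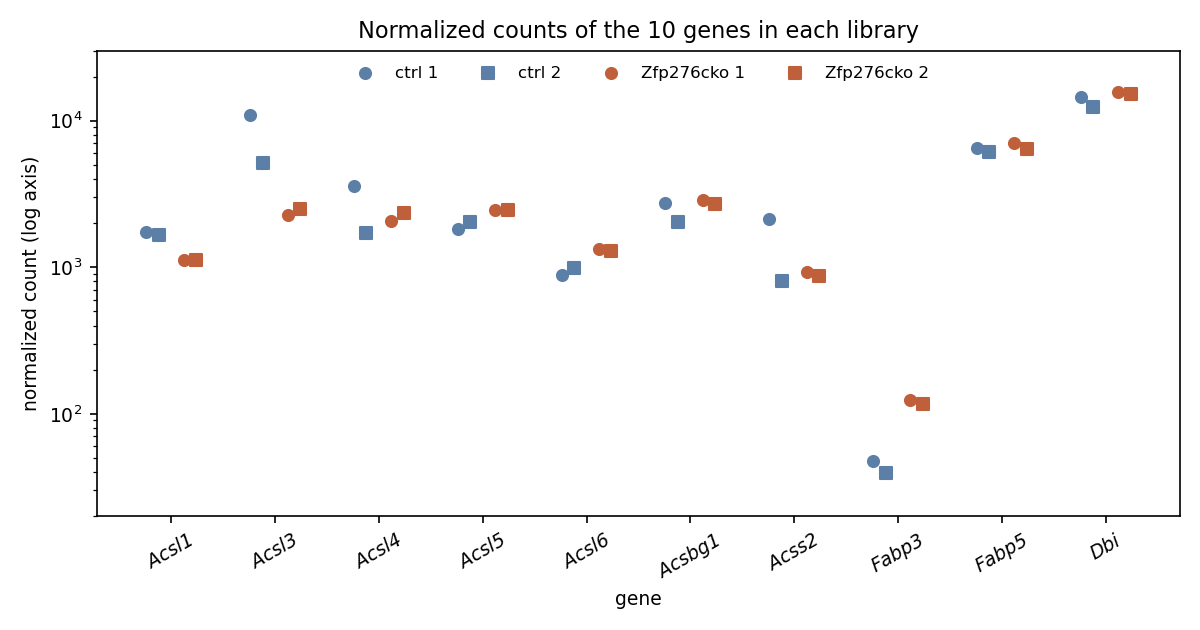
Normalized counts (y axis, log scale) of the 10 genes (x axis) in the ctrl (blue) and Zfp276cko (orange) libraries, with circles for replicate 1 and squares for replicate 2. The Zfp276cko points of Acsl3 and Acsl1 lie below both ctrl points and those of Fabp3 above them, and the ctrl points of Acsl3, Acsl4 and Acss2 lie farthest apart.

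Acsl3 lies on the forward strand of chr1:78657825-78707743 (GRCm38) and codes for the long-chain synthetase of the endoplasmic reticulum and of lipid droplets. In ctrl, Acsl3 reached normalized counts of 10957 and 5105, in Zfp276cko of 2281 and 2510. Both Zfp276cko values lay below the lower ctrl value, and the ctrl values differed 2.15-fold from each other. On average, Acsl3 in Zfp276cko was at 29.8% of ctrl. On the log2 scale this was −1.75 (SE 0.40, adjusted p = 0.189 in edgeR). The value was −1.09 with ctrl replicate 1 left out and −2.21 with ctrl replicate 2 left out, so its size depended on which ctrl preparation was used. DESeq2 called Acsl3 lower (adjusted p = 2.13e-04), and over the 7 alternatives that kept all 4 libraries the adjusted p ranged from 2.13e-04 to 0.237. Exons of Acsl3 share 244 bases, 5.6% of its exonic length, with Utp14b on the same strand. Utp14b had normalized counts of 1482 and 1688 in ctrl and of 617 and 670 in Zfp276cko. How many of the Acsl3 reads came from the shared bases was not tested.

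The Acsl3 promoter is printed because this gene had the largest absolute log2 fold change of the 10. The 250 bases before its RefSeq start, at chr1:78657575-78657824 on the forward strand of GRCm38.p6, hold a CCAAT box of the NF-Y type at position −15 from the start, set in capitals:
Acsl3: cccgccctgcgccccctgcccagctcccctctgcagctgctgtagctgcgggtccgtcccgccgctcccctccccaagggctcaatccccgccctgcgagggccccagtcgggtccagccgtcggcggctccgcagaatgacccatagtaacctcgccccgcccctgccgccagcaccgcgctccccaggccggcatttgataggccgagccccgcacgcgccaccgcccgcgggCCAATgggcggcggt
CCAAT was found on either strand in 37.4% of all 32851 RefSeq promoter windows, each of 250 bases before to 50 bases after a start. It was found in 9 of the 13 windows of the 9 genes that had any, with none in those of Fabp3 and Acsl4 and no window for Fabp5. The windows of Dbi overlap and hold the same CCAAT, so the 9 windows are not independent. TCACNCCAC, a form of the site bound by SREBP, was not found in the Acsl3 window.

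Acsl1, on the forward strand of chr8:46471037-46536051 (GRCm38), codes for a long-chain synthetase of the outer mitochondrial membrane and the endoplasmic reticulum. The 2 ctrl libraries gave normalized counts of 1744 and 1671 for Acsl1, the Zfp276cko libraries 1123 and 1112. The values were close together within each genotype and well apart between them. Acsl1 in Zfp276cko was at 65.4% of ctrl, with a log2 fold change of −0.61 (SE 0.09, unadjusted p = 0.00162, adjusted p = 0.123 in edgeR). Leaving out either ctrl library gave −0.58 or −0.66. Acsl1 was called lower in DESeq2 (log2 fold change −0.63, adjusted p = 0.00277), with adjusted p-values from 0.00277 to 0.242 over the same 7 alternatives. The log2 fold change of Acsl1 was smaller than that of Acsl3, and so was the spread between the ctrl preparations.

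Letters of the SREBP site were found in 1 of the 13 windows, which belongs to Acsl1, and in 1.24% of all windows. The match stands before a RefSeq start inside the gene, at chr8:46490716-46490965 (GRCm38.p6, forward strand), and the sequence is given to show its place. The capitals mark the site, on the reverse strand from position −76, and CCAAT on the reverse strand from −172 and −49:
Acsl1: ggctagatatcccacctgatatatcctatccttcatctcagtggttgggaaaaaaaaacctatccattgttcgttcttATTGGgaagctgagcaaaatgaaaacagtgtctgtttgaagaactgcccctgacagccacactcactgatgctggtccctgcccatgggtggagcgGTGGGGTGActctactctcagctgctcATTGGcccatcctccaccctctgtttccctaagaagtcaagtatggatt
The counts are per gene and do not tell which start was used.

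Acsl4, on the reverse strand of chrX:142317993-142390535, codes for the synthetase that prefers arachidonic acid. Normalized counts of Acsl4 reached 3558 and 1718 in ctrl, compared to 2056 and 2339 in Zfp276cko. Both Zfp276cko values fell between the ctrl values, which differed 2.07-fold. The estimated log2 fold change was −0.26 (SE 0.37, adjusted p = 0.777), but 0.36 if ctrl replicate 1 was left out and −0.71 if ctrl replicate 2 was. No direction can therefore be given for Acsl4.

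Acsl5, on the forward strand of chr19:55251938-55297720, codes for a synthetase found on mitochondria and the endoplasmic reticulum. Acsl5 had 1814 and 2049 normalized counts in the ctrl libraries versus 2448 and 2454 in Zfp276cko. Both Zfp276cko values were above the ctrl values and almost equal. This gave a log2 fold change of 0.34 (SE 0.10, unadjusted p = 0.0247, adjusted p = 0.251), and 0.26 or 0.42 when a ctrl library was left out. Acsl5 overlaps Zdhhc6, a gene on the opposite strand, over 404 exonic bases (8.31% of its exonic length), and Zdhhc6 had a log2 fold change of 0.41 (SE 0.09, adjusted p = 0.179). The library kit marks strand, but the strand setting of the counting was not given in the sources used here.

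Acsl6, on the forward strand of chr11:54303798-54364756, codes for a synthetase that is enriched in brain and linked to docosahexaenoic acid. For Acsl6, 879 and 985 normalized counts were obtained from ctrl, 1341 and 1296 from Zfp276cko. Both Zfp276cko libraries were above both ctrl libraries, at 1.42 times the ctrl mean. Its log2 fold change of 0.50 (SE 0.11, unadjusted p = 0.0078, adjusted p = 0.179) was 0.42 or 0.57 when ctrl replicate 1 or 2 was left out. Neither Acsl5 nor Acsl6 was called in DESeq2.

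**Figure D2:**
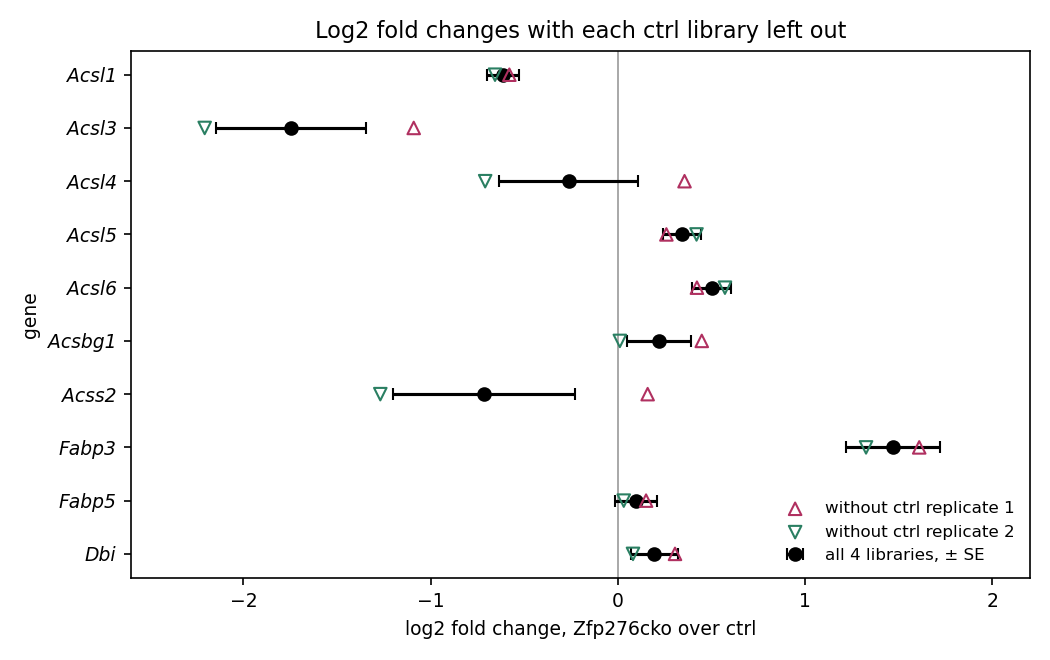
Log2 fold changes (x axis, Zfp276cko over ctrl) of the 10 genes (y axis) from edgeR with all 4 libraries (black points, bars ± SE), with ctrl replicate 1 left out (upward triangles) and with ctrl replicate 2 left out (downward triangles). For Acsl4 and Acss2 the triangles lie on opposite sides of 0, while those of Acsl1, Acsl3, Acsl5, Acsl6 and Fabp3 lie on the side of their black point.

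To compare the 5 long-chain synthetases with each other, normalized counts were divided by transcript length and expressed as reads per kilobase of transcript, scaled by library size (RPKM). Their summed RPKM was 197 and 123 in ctrl and 99.4 and 103 in Zfp276cko, lower in both Zfp276cko libraries. Acsl3 made up 59.5% and 44.4% of this sum in ctrl but 24.6% and 26.0% in Zfp276cko, and was the largest contributor in every library, closely followed by Acsl5 in Zfp276cko. The share of Acsl5 was 9.17% and 16.6% in ctrl and 24.6% and 23.7% in Zfp276cko. That of Acsl6 was 7.27% and 13.0% in ctrl and 22.0% and 20.5% in Zfp276cko, and that of Acsl4 was 14.5% and 11.2% in ctrl and 16.6% and 18.1% in Zfp276cko. The share of Acsl1 overlapped between the genotypes, from 9.60% to 14.7% in ctrl and from 11.7% to 12.3% in Zfp276cko. The shares depend on the length used, since reads from all exons were counted. With the length of all exons instead of the longest principal transcript, an alternative chosen after seeing the data, Acsl6 made up 2.33% and 4.58% in ctrl and 8.20% and 7.47% in Zfp276cko, and Acsl3 66.2% and 54.0% in ctrl versus 31.7% and 32.9%. The shares of Acsl3, Acsl4, Acsl5 and Acsl6 lay on the same side of ctrl with either length. Shares of a sum are not independent of each other, and with 2 libraries per genotype an exact permutation test cannot give a two-sided p below 0.333, so none was run.

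**Figure D3:**
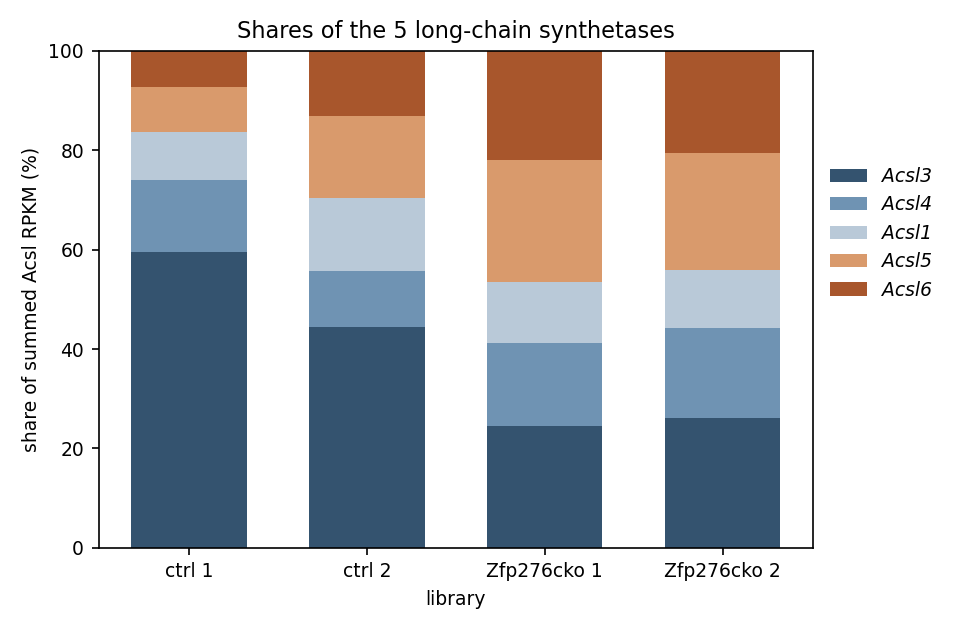
Share of the summed RPKM of the 5 long-chain synthetases (y axis, percent) in each library (x axis), stacked by gene. The Acsl3 segment takes 59.5% and 44.4% in the ctrl libraries and 24.6% and 26.0% in the Zfp276cko libraries, next to larger Acsl5 and Acsl6 segments in Zfp276cko.

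Acsbg1, on the reverse strand of chr9:54604877-54661870, codes for the bubblegum synthetase for long and very long chains. Acsbg1 reached 2726 and 2033 normalized counts in ctrl, compared to 2860 and 2685 in Zfp276cko. The higher ctrl value lay between the Zfp276cko values. A log2 fold change of 0.22 (SE 0.17, adjusted p = 0.586) was obtained, which became 0.45 or 0.01 when ctrl replicate 1 or 2 was left out.

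Acss2, on the forward strand of chr2:155517948-155585724, codes for the nuclear and cytosolic enzyme that turns acetate into acetyl-CoA, the building block of fatty acid and sterol synthesis. Normalized counts amounted to 2143 and 805 in the ctrl libraries, but to 925 and 871 in Zfp276cko. One ctrl library stood 2.66-fold above the other, and both Zfp276cko libraries were near the lower one. The estimate was a log2 fold change of −0.71 (SE 0.49, adjusted p = 0.540), with 0.16 in the absence of ctrl replicate 1 and −1.27 in the absence of ctrl replicate 2. The apparent difference in Acss2 thus rested on ctrl replicate 1.

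Acsl3, Acsl4 and Acss2 shared their pattern in ctrl, as each was more than 2-fold higher in replicate 1 than in replicate 2. In the same library, the summed normalized counts of 21 sterol genes regulated by SREBP were also high, with 172431 in ctrl replicate 1 and 88212 in ctrl replicate 2, compared to 45171 and 45397 in Zfp276cko. Of the 20 that passed the filter, 20 lay below both ctrl libraries in Zfp276cko. Genes of fibroblasts and vessels summed to 9063 in ctrl replicate 1 and to between 443 and 568 in the other libraries, and 9 of these 10 genes passed the filter. Within this list the endothelial gene Cldn5 had no count in any library, while the endothelial gene Pecam1 had normalized counts of 106 and 93.4 in ctrl versus 153 and 161 in Zfp276cko. Several neuronal genes were low in ctrl replicate 1, such as Gad1 with 78.4 compared to 2002 in ctrl replicate 2. Syt1 had 33.2 compared to 874 and Snap25 had 35.6 compared to 484. Others differed less between these libraries, namely Map2 (14612 and 18853), Nefm (65.3 and 88.9) and Nefl (41.6 and 43.9). Slc17a7, which did not pass the filter, had 5.94 and 2.25. These marker genes were named after their values were seen. The part of these genes and cells in the values of Acsl3, Acsl4 and Acss2 was not tested.

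Fabp3, on the forward strand of chr4:130308595-130315463, codes for the heart-type fatty acid binding protein. With normalized counts of 47.5 and 39.4 in ctrl versus 124 and 117 in Zfp276cko, Fabp3 had few reads in every library. The groups were clearly separate, with Fabp3 in Zfp276cko at 2.77 times the ctrl mean, but the values rest on 40 and 35 counted reads in ctrl and 137 and 136 in Zfp276cko. The log2 fold change was 1.47 (SE 0.25, unadjusted p = 0.00364, adjusted p = 0.148 in edgeR), with 1.61 and 1.33 when ctrl replicate 1 or 2 was left out. Fabp3 was called higher in DESeq2 (adjusted p = 0.0118), with values from 0.0118 to 0.291 over the 7 alternatives. Over 81 bases (9.84% of its exonic length) Fabp3 overlaps Zcchc17 on the opposite strand, which had a log2 fold change of −0.34 (SE 0.11, adjusted p = 0.288). Its near-identical processed pseudogene Fabp3-ps1 (99.25% identity over 402 bases) had at most 1 read in a library.

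The Fabp3 promoter is given because Fabp3 was the only gene of the 10 called higher in DESeq2. Within the 250 bases before its RefSeq start, at chr4:130308488-130308737 (GRCm38.p6, forward strand), AAAGGG occurs on the reverse strand from position −109, in capitals. These letters are part of the longer core, AAAAGGGCT, that the study defined for Zfp276 binding:
Fabp3: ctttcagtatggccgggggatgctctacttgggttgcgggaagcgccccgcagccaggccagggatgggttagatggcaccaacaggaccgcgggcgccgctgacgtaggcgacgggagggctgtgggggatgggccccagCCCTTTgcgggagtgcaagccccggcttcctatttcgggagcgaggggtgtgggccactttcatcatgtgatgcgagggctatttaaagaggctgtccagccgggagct
AAAGGG on either strand is present in 21.5% of all promoter windows and was found in 3 of the 13 windows (23.1%), those of Fabp3, Acsl5 and Acsbg1, a share close to that of all windows. The whole core AAAAGGGCT (0.35% of all windows) was searched after the data were seen. It was found in none of the 13, the Fabp3 window included. On the reverse strand, the printed Fabp3 letters differ from this core only at its first base. In the study, mutating that base strongly reduced binding to the site tested. The study also derived a consensus from all its sites, with more variable outer bases. Windows were not searched for that consensus, so its presence or absence was not tested. CACGTG (an E-box, 7.15% of all windows) and AGGTCA half-sites placed 1 base apart, as bound by PPAR receptors (0.0396% of all windows), were found in none of the 13 windows of the 9 genes. These are matches of letters and not evidence of binding.

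Fabp5, on the forward strand of chr3:10012548-10016607, codes for the epidermal-type fatty acid binding protein. In ctrl, 6524 and 6069 normalized counts were found for Fabp5, in Zfp276cko 7054 and 6410. The groups overlapped, and the log2 fold change was 0.10 (SE 0.11, adjusted p = 0.723). Per transcript length, Fabp5 (270 RPKM ± 13.8 in ctrl and 289 RPKM ± 19.5 in Zfp276cko, SD, n = 2) was far more abundant than Fabp3 (2.23 RPKM ± 0.29 and 6.19 RPKM ± 0.26). Fabp3 made up 0.865% and 0.772% of the sum of both carriers in ctrl and 2.06% and 2.14% in Zfp276cko. The sum itself overlapped between the genotypes.

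Fabp5 has 5 processed pseudogenes, intron-free copies elsewhere in the genome, that align to it over at least a read length of 101 bases with at least 90% identity. One of them, Gm6166 (chr9:57483963-57484371, forward strand), was picked here once its counts had been looked at. It had 1128 reads in ctrl replicate 1 but 28 in ctrl replicate 2 and 40 and 33 in Zfp276cko. These were 17.0% of the reads on Fabp5 plus Gm6166 in ctrl replicate 1 (95% Wilson interval 16.1 to 18.0%). In ctrl replicate 2 the share was 0.517% (0.358 to 0.745%), and in Zfp276cko it was 0.510% (0.375 to 0.694%) and 0.440% (0.314 to 0.618%). The intervals cover counting error only. Over bases 93 to 499 of the Fabp5 transcript, Gm6166 differs at 5 bases and by 2 inserted bases (98.29% identity). To show how close both copies are, bases 243 to 499 of the Fabp5 transcript and bases 151 to 409 of Gm6166 are printed, with 4 of the 5 differing bases and the insertion in capitals:
Fabp5: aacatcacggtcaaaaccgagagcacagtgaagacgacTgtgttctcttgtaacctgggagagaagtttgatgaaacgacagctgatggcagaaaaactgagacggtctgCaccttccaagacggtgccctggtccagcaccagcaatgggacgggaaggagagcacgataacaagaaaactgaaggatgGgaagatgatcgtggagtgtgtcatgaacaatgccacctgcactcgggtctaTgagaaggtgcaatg
Gm6166: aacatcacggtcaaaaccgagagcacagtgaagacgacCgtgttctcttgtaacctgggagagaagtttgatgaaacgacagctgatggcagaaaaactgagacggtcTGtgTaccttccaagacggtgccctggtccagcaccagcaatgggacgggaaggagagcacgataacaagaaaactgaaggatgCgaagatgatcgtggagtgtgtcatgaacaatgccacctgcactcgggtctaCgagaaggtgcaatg
The longest identical stretch has 179 bases, more than a read, so a read within it cannot be assigned to one copy by its letters alone. With the reads of all 5 pseudogenes added, Fabp5 reached normalized counts of 7868 and 6113 in ctrl versus 7112 and 6457 in Zfp276cko, and the log2 fold change was −0.04 (SE 0.16, adjusted p = 0.926). The sign of this small value changed with the added reads, and the groups overlapped either way.

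**Figure D4:**
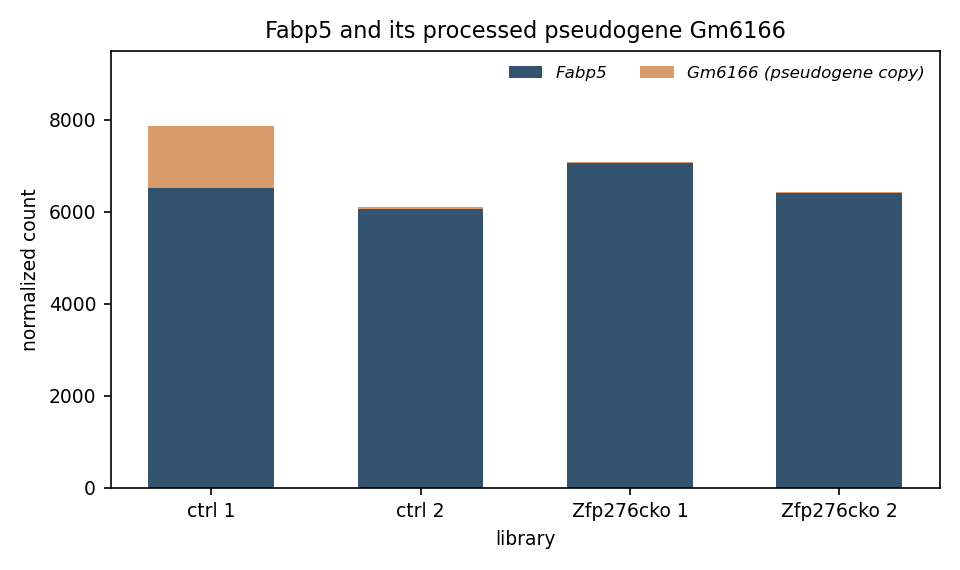
Normalized counts (y axis) of Fabp5 (dark blue) and its processed pseudogene Gm6166 (light orange, stacked on top) in each library (x axis). Gm6166 is visible as a segment of 1339 in ctrl replicate 1 and is at most 36.2 in the other libraries.

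Dbi, on the reverse strand of chr1:120113280-120121078, codes for the acyl-CoA binding protein, which buffers and transports acyl-CoAs. Dbi had 14427 and 12475 normalized counts in ctrl, compared to 15639 and 15167 in Zfp276cko. Both Zfp276cko values were above both ctrl values, but the nearest values of the 2 groups lay closer together than the ctrl values did. Dbi had a log2 fold change of 0.20 (SE 0.13, adjusted p = 0.524), and 0.31 or 0.08 without ctrl replicate 1 or 2.

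Per transcript length, Dbi was the most abundant of the 10 transcripts in ctrl (1000 RPKM ± 103, SD, n = 2), followed by Fabp5 and by Acsl3 (86.0 RPKM ± 44.3). The next genes in ctrl, Acsbg1 (35.0 RPKM), Acss2 (21.3), Acsl4 (21.1), Acsl5 (19.3) and Acsl1 (18.5), each overlapped their neighbour in this order. Acsl6 (15.2 RPKM) was separate from its neighbour Acsl1 but lay within the ctrl ranges of Acss2 and Acsl4. Only Fabp3 was separate from all others at the end. In Zfp276cko, Dbi (1145 RPKM ± 24.8) and Fabp5 also led, but Acsbg1 (40.7 RPKM) stood above Acsl3 (25.7 RPKM ± 1.73), which overlapped Acsl5 (24.4 RPKM). They were followed by Acsl6 (21.5 RPKM), Acsl4 (17.6), Acss2 (13.0), Acsl1 (12.1) and Fabp3 (6.19), with no overlap between neighbours. With the length of all exons, Dbi came first in both genotypes, but Acsl3 (78.0 RPKM) stood above Fabp5 (74.7) in ctrl, and Acss2 was last in Zfp276cko, so the order depends on the length used. By transcript length, Acsl3 moved from the third to the fourth place. The mean of Acsl1 stood above that of Acsl6 in ctrl and below it in Zfp276cko. It was below the means of Acsl4 and Acss2 in both genotypes.

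Genes of the interferon response stood apart between the genotypes. The summed normalized counts of 20 such genes reached 15520 and 6113 in ctrl versus 100153 and 97662 in Zfp276cko, and 19 of 20 lay above both ctrl libraries. Microglial genes had summed counts within the wide range of ctrl. Of these 11 genes, 4 lay above and 0 below both ctrl libraries (3 and 0 at an unadjusted p of at most 0.05). Their median log2 fold change was 0.24, or 0.72 and −0.07 when ctrl replicate 1 or 2 was left out. The part of these cells and of this response in the higher values of Acsl5, Acsl6 and Fabp3 was not tested.

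Other genes that activate or carry fatty acids lay on both sides of ctrl. Of 29 listed, 16 passed the filter, 5 of which lay below and 3 above both ctrl libraries. At an unadjusted p of at most 0.05 in edgeR, 2 were lower and 3 higher. Of all genes tested, 23.7% lay below and 26.8% above, and 7.3% were lower and 8.33% higher at that p. The median log2 fold change of these 16 genes was −0.10, or −0.04 and −0.06 when ctrl replicate 1 or 2 was left out. Aacs, which activates acetoacetate, had a log2 fold change of −1.02 (SE 0.21, adjusted p = 0.172), and the fatty acid transporters Slc27a4 and Cd36 had −0.51 (adjusted p = 0.162) and −0.25 (adjusted p = 0.501). The value of Cd36 was −0.41 or −0.08 when ctrl replicate 1 or 2 was left out. Higher values were found for the mitochondrial synthetase Acsf2 (1.01, adjusted p = 0.240) and the transporters Slc27a6 (0.94, adjusted p = 0.310) and Slc27a1 (0.68, adjusted p = 0.217). Fabp7, the brain-type carrier, had normalized counts of 8806 and 16585 in ctrl and 11043 and 10529 in Zfp276cko, which overlapped. Acsm5, Fabp6 and Fabp9 had no read in any library, a count that allows for up to 3 reads in each.

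Of the enzymes that make the acyl chains and regulators listed with them, 16 of 17 passed the filter. Of these, 10 lay below and 2 above both ctrl libraries (5 and 0 at an unadjusted p of at most 0.05). The shares of all genes tested were 23.7% below and 26.8% above (7.3% and 8.33% at that p). The median log2 fold change was −0.38, or −0.29 and −0.39 when ctrl replicate 1 or 2 was left out. Among them were Acly, which supplies cytosolic acetyl-CoA (−0.95, adjusted p = 0.237), the desaturase Scd2 (−0.66, adjusted p = 0.315) and the elongase Elovl6 (−0.63, adjusted p = 0.301). If ctrl replicate 1 was left out, these values were smaller, at −0.55, −0.36 and −0.32. The 2 genes above both ctrl libraries were Thrsp and Srebf1, a transcription factor of lipid synthesis. They had values of 0.86 (adjusted p = 0.351) and 0.76 (adjusted p = 0.347), and that of Srebf1 was 0.40 or 1.23 when ctrl replicate 1 or 2 was left out.

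Among genes of esterification and lipid droplets, into which acyl-CoAs are channelled, 7 lay below and 7 above both ctrl libraries out of 27 that passed the filter. At an unadjusted p of at most 0.05 in edgeR, 3 were lower and 3 higher (7.3% and 8.33% of all genes tested). Of all genes tested, 23.7% lay below and 26.8% above, so 7 of 27 on each side was close to these shares. The median of the list was −0.06, or −0.04 and −0.01 when ctrl replicate 1 or 2 was left out. Plin2, a coat protein of lipid droplets, had normalized counts of 2155 and 1936 in ctrl and 8735 and 7930 in Zfp276cko, a log2 fold change of 2.03 (SE 0.12, adjusted p = 0.0962 in edgeR). Both Zfp276cko values were several times above ctrl. DESeq2 called Plin2 higher (adjusted p = 8.80e-30, and 8.80e-30 to 0.108 over the 7 alternatives). Plin3, a related coat protein, had 335 and 361 in ctrl and 731 and 733 in Zfp276cko (1.07, SE 0.13, adjusted p = 0.115), and Lpin3 had 0.85 (adjusted p = 0.463, with 0.41 or 1.51 when ctrl replicate 1 or 2 was left out). Mgll, which splits monoacylglycerol, had −0.53 (adjusted p = 0.187), and Abhd5 and Agpat4 had −0.40 (adjusted p = 0.312) and −0.38 (adjusted p = 0.290), or −0.22 and −0.24 if ctrl replicate 1 was left out.

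Genes of fatty acid oxidation were spread to both sides, with 7 below and 11 above both ctrl libraries out of 26 that passed (3 and 6 at an unadjusted p of at most 0.05). For this and the next lists, the shares of all genes tested were 23.7% below and 26.8% above (7.3% and 8.33% at that p). The median of the oxidation genes was 0.12. Its sign turned on the ctrl library, with 0.26 if replicate 1 was left out and −0.04 if replicate 2 was. The trifunctional protein subunits Hadhb (−0.74, adjusted p = 0.230) and Hadha (−0.51, adjusted p = 0.197) had lower values. Ehhadh (0.76, adjusted p = 0.411), the short-chain dehydrogenase Acads (0.73, adjusted p = 0.162) and Decr1 (0.70, adjusted p = 0.230) had higher ones. Hadhb had −0.47 if ctrl replicate 1 was left out, and Ehhadh had 1.24 or 0.39 when ctrl replicate 1 or 2 was. Of 10 acyl-CoA thioesterases, which release the fatty acid again, 0 lay below and 5 above both ctrl libraries (0 and 1 at an unadjusted p of at most 0.05), with a median of 0.20 (0.19 or 0.33 when ctrl replicate 1 or 2 was left out). Acot2 had 0.63 (adjusted p = 0.365), Acot9 0.58 (adjusted p = 0.207) and Acot11 0.47 (adjusted p = 0.596). The value of Acot11 was 0.07 if ctrl replicate 1 was left out and 1.01 if ctrl replicate 2 was, and that of Acot2 was 0.39 in the latter case. Of 13 PPAR target genes, several of them named above, 3 lay below and 7 above both ctrl libraries (2 and 2 at an unadjusted p of at most 0.05), with a median of 0.30 (0.58 or 0.26 when ctrl replicate 1 or 2 was left out). In the sterol list, Lss and Idi1, enzymes of sterol synthesis, had log2 fold changes of −2.10 (adjusted p = 0.240) and −1.94 (adjusted p = 0.204), which were −1.03 and −1.15 if ctrl replicate 1 was left out. The median of the 20 genes was −1.59, or −0.99 without ctrl replicate 1. Of the genes named in these other lists, DESeq2 called Aacs, Acly, Lss and Idi1 lower and Plin2, Plin3 and Acads higher.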

How the data were processed

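RNA was collected from 4 primary mouse oligodendroglial cultures at 3ddiff, 2 per genotype, each from a separate preparation. The p-values of edgeR rest on a spread between preparations that was estimated over both genotypes together. The spread was unequal, with a biological coefficient of variation of 0.354 in ctrl and 0.0480 in Zfp276cko. The pooled estimate therefore describes neither genotype alone. Libraries were made with a stranded mRNA kit and read single-end over 101 bases. Reads had been mapped by the authors to mm10 using STAR (2.5.4a) and the authors deposited raw counts per gene. The submitters' processing notes name featureCounts (1.5.1) for the counting, whereas the methods name HTSeq, and the strand setting was not given in the sources used here. Depth was 21068322 to 26599809 counted reads per library.

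The deposited counts were filtered (filterByExpr, 15766 genes with 99.9% of counts kept), scaled by TMM and tested with edgeR (4.0.16, R 4.3.3) by the quasi-likelihood test with Benjamini-Hochberg adjustment over all genes tested and without covariates. Genes were called at an adjusted p up to 0.05 if the log2 fold change reached 0.6 in size and the normalized count averaged 20 or more. The quasi-likelihood test does not report an SE. Each SE of edgeR was derived as the absolute log2 fold change divided by the square root of the F statistic. Scripts were tested on simulated data. Alternatives were DESeq2 (1.42.0), voom of limma (3.58.1) with a quality weight per genotype, other size factors and filters, a replicate block, each library left out, and Fabp5 summed with its pseudogenes, which was added after seeing the data. Normalized counts were scaled to the mean effective library size. RPKM used the longest principal transcript (GENCODE M21), with the length of all exons as an alternative added after seeing the data. RefSeq promoter windows (GRCm38.p6) matched 9 of the 10 genes with 13 windows and were searched on both strands.

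All 10 genes were named. Of each other list, up to 3 genes per direction with the largest absolute log2 fold change were named, among those whose groups did not overlap and whose normalized counts averaged 20 or more. Some genes that this rule takes are not reported here. Genes and lists were chosen with earlier results of these data known. Any other gene, apart from Zfp276 and copies or overlapping genes, was chosen after its values were seen.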

Additional observations from a re-analysis of the deposited data

How the results depend on the processing

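No gene was called lower or higher in edgeR. DESeq2 called 338 genes lower and 449 higher, voom with a quality weight per genotype called 72 and 133, an unadjusted p with the same fold and mean thresholds gave 476 and 806, and testing without a filter on low counts gave 8 higher. Among the 10 genes, DESeq2 and the unadjusted p each called 2 lower and 1 higher. Why the tests differed was not tested. With 1 library left out, calls ranged from 0 to 1286 lower and from 0 to 1792 higher over all genes, and from 0 to 4 lower and 0 to 1 higher among the 10 genes. All of these calls came from leaving out a ctrl library, where the lone ctrl library is assumed to vary like Zfp276cko: without ctrl replicate 1 there were 952 lower and 1689 higher genes, without ctrl replicate 2 there were 1286 and 1792. Without ctrl replicate 1 the log2 fold changes of Acsl4 (0.36) and Acss2 (0.16) turned positive, and that of Fabp5 turned to −0.043 when its pseudogenes were added. Without ctrl replicate 2, Acsl4 (−0.71) and Acss2 (−1.27) kept the sign of the full fit. The median of the 10 genes ranged from 0.02 to 0.28 with 1 library left out. The replicate block gave a median of 0.15 and 0 calls. The labels share only replicate numbers, and the deviations of same-numbered libraries correlated with −0.0043, so no pairing was assumed. Counts of 35 to 137 reads limit the precision of Fabp3, and the spread of ctrl limits that of Acsl3, Acsl4 and Acss2.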
